A study of Mus musculus with 24 samples.

Results

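The comparison set the livers of mice with diet-induced steatohepatitis (NASH) after 6 weeks of feeding against those after 2 weeks, across mature miRNAs. The NASH mice were male C57BL/6NJcl animals on a choline-deficient high-fat diet supplemented with methionine (CDAHFD), and the controls were the same strain and sex on CE-2 chow. All were bought at 5 weeks of age and acclimatized for 1 week, so that they were 8 weeks old at week 2 and 12 weeks old at week 6. Each of these 4 groups had 2 arrays, and the comparison rests on 4 of the 24 arrays of the series. Of the 1881 mouse miRNAs with probes, 364 were flagged as detected on at least 2 of the 4 NASH arrays and make up the set described here. Of these, 310 were detected on all 4 arrays, 33 on 3 and 21 on 2, and a further 36 detected on 1 array were left out. Whether the 2 arrays of a group stand for separate mice or for pooled RNA is not stated, and the p-values cover only the spread from array to array, part of which may be technical.

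A mature miRNA is a short RNA that guides Argonaute proteins to messenger RNAs, mainly through its seed, bases 2 to 8 from the 5′ end. In liver, hepatocytes make large amounts of miR-122, while other cell types carry miRNAs of their own, such as miR-223 in myeloid cells and miR-199a and miR-214 in stellate and other mesenchymal cells. Diets that lack choline impair the export of triglyceride from hepatocytes, and the fatty liver that follows becomes inflamed and scarred with longer feeding. The question of the comparison is how liver miRNAs differ between an early and a later stage of that process.

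Mature sequences from the RefSeq table (build GRCm38.p6) were found for 319 of the 364 miRNAs. Those below belong to the miRNAs that the results turn on, and their seeds are in capitals. The first set lies in the imprinted Dlk1-Dio3 region of chromosome 12 (list members at chr12:109585818-109743784) and had the largest positive differences. The entire 21-base sequence of miR-299b-5p, which comes from the opposite strand, is contained in miR-299a-5p. No probe of the array was named for miR-299a-5p, so the signals of the 2 cannot be told apart here.
miR-379-5p: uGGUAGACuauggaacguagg
miR-299b-5p: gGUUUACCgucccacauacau
miR-300-3p: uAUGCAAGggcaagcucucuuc
miR-434-3p: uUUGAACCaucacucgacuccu
miR-154-5p: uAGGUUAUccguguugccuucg

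The second set shows pairs from 1 genomic cluster that share a seed and were both higher at week 6. miR-497a-5p and miR-195a-5p lie on chromosome 11 (chr11:70234730-70235082, plus strand) and share the seed AGCAGCA. miR-200b-3p and miR-429-3p lie on chromosome 4 (chr4:156053916-156055706, minus strand) and share the seed AAUACUG.
miR-497a-5p: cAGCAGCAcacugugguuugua
miR-195a-5p: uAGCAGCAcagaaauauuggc
miR-200b-3p: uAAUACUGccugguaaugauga
miR-429-3p: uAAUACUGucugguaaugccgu

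The third set is the miR-378 group, lower at week 6. miR-378b and miR-378c come from different chromosomes but share a run of 19 bases, and each shares 14 with miR-378d, so their probes may bind each other's target. The seed frame is shifted by 1 base between miR-378b and miR-378c because miR-378b starts 1 base later. miR-34a-5p is shown because it was far above control at both weeks.
miR-378b: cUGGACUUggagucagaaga
miR-378c: aCUGGACUuggagucagaagc
miR-378d: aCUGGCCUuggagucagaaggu
miR-34a-5p: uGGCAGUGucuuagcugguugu

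The arrays detected 337 and 359 miRNAs at week 2 and 342 and 379 at week 6, a mean of 348 ± 15.6 against 360.5 ± 26.2 (SD, n = 2 each). The two-sided exact permutation p was 0.667, and the smallest that 2 arrays against 2 can give is 0.333. Values are scaled intensities in arbitrary units, set against the bright probes of the same array, with a floor at 13.25 for dim probes; 25.8% of the values on the 4 arrays lay at this floor. The percentile used for scaling was 505 and 700 at week 2 and 626 and 793 at week 6. All 8 arrays of weeks 2 and 6 lay on 1 slide, with NASH week 2 in column 2 and NASH week 6 in column 4, so week and slide column cannot be told apart. Replicate 1 and replicate 2 lay in rows 1 and 2.

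At week 6 the liver of NASH mice differed little from week 2 for most miRNAs. The largest positive differences were those of the Dlk1-Dio3 miRNAs, led by miR-379-5p at a log2 difference of 1.34. The largest negative ones were those of miR-6973a-3p at -1.12 and miR-5127 at -1.11, each with 1 week 6 array at the floor. None of the 364 miRNAs passed an adjusted p of 0.05 in limma (0%), and the lowest adjusted p was 0.200. At an unadjusted p under 0.05 there were 39 (10.7%), of which 10 were higher at week 6 (2.75% of those tested) and 29 lower (7.97%). An ordinary limma fit, in which groups lying wholly at the floor count as having no spread, called 14, of which 5 were higher and 9 lower.

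The median log2 difference over all 364 was -0.09, and the median size of the difference among the 310 detected on all 4 arrays was 0.19. For these the median standard error (SE) was 0.20 and the median 95% interval reached 0.49 to either side. Differences of at least 1 log2 unit were seen for 7 miRNAs. Both week 6 arrays lay above both week 2 arrays for 25 miRNAs (6.87%) and below them for 84 (23.1%), and the groups overlapped for the other 255. The direction of the middle of the distribution depended on the scaling: the median over miRNAs detected on all 4 arrays was -0.14 as reported, 0.06 when scaled over all probes and 0.05 without scaling, and the split of means, 89 higher (24.5%) and 215 lower (59.1%), became 199 and 91, and 199 and 108.

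**Figure D1:**
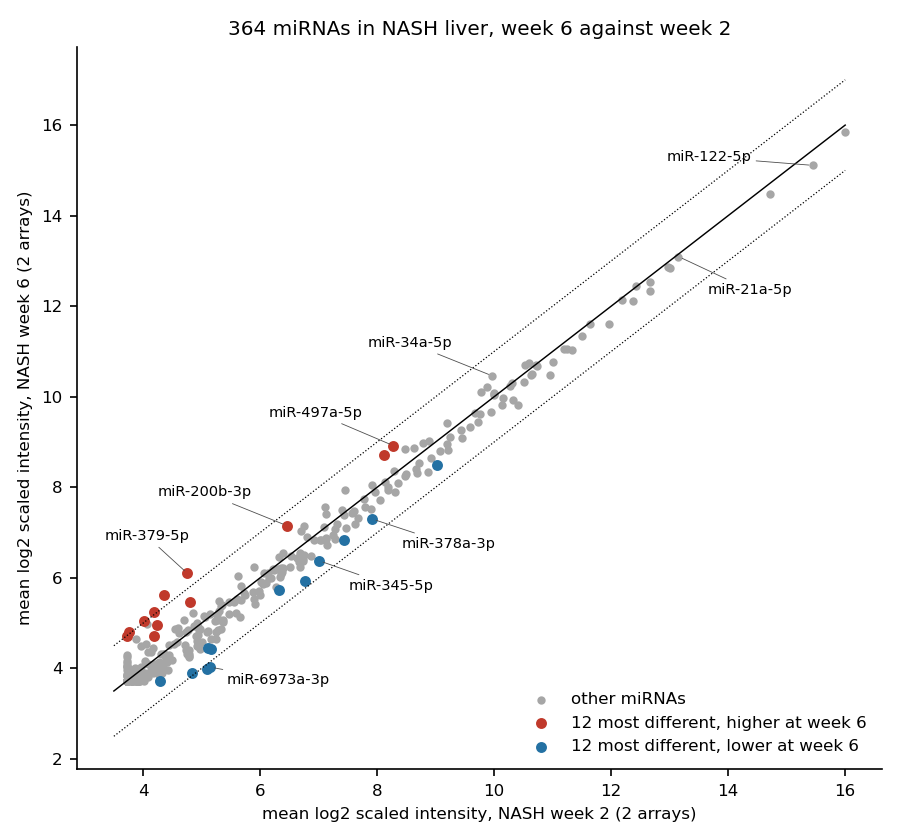
Mean log2 scaled intensity of each of the 364 miRNAs on the 2 NASH week 6 arrays (vertical) against the 2 NASH week 2 arrays (horizontal), with the line of equal level and dotted lines 1 log2 unit to either side. Most points lie within 1 unit of the line; the 12 most different miRNAs in each direction are coloured, and 7 miRNAs differ by at least 1 unit.

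Distances between whole arrays showed the same scale. Taken as the median absolute log2 difference over the miRNAs detected on all 8 arrays, the 2 NASH week 2 arrays were 0.21 apart and the 2 NASH week 6 arrays 0.29. NASH week 6 and week 2 arrays were 0.195 to 0.368 apart. Pairs with the same replicate number, and so the same slide row, were 0.195 to 0.248 apart, and pairs with different numbers 0.313 to 0.368. The 2 arrays of a group always differ in number and row, so the pairs with different numbers are the like comparison. Those pairs were farther apart than the arrays within either group. NASH and control arrays of the same week were farther apart, by 0.416 to 0.727 at week 2 and 0.460 to 0.541 at week 6.

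The Dlk1-Dio3 miRNAs are processed from a maternally expressed transcript of an imprinted region that is active in the embryo and low in most adult livers. Of the 67 on the array 21 were in the set, and of these 8 were higher on both week 6 arrays (beside 6.87% of all miRNAs tested), 1 was lower on both (beside 23.1%) and 12 overlapped. None passed the adjusted test, and the list's median difference was 0.53, beside -0.09 over all miRNAs tested. Of the 21, 9 were detected on all 4 arrays. miR-337-5p, miR-410-3p and miR-434-5p, outside the naming rule, were detected on week 6 arrays only and so passed the filter through that group. Their differences were 0.10, 0 and 0. With normexp background correction, which adds an offset of 50 to these dim signals, the list's median was 0, with 10 higher and 10 lower means. With the floor doubled it was 0.03, and with the mean of probes in place of the brightest 0.31. The 8 higher on both arrays were miR-379-5p, miR-299b-5p, miR-300-3p, miR-434-3p, miR-154-5p, miR-136-5p, miR-127-3p and miR-411-5p, of which miR-411-5p was named after its values were seen. Differences given below are those of the brightest probe. A second, dimmer probe gave smaller ones, 0.90 for miR-379-5p, 0.74 for miR-299b-5p and 0.53 for miR-154-5p. The list leaves out miR-1188-3p, which lies within its span and was detected on all 4 NASH arrays. Its log2 difference was -0.23 in NASH and 1.66 in controls. miR-3072-5p and 1 of the 2 loci of miR-1906 flank the span, with 0.15 and -0.05 in NASH and 1.05 and 0 in controls. These miRNAs are outside the naming rule.

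miR-379-5p, the first miRNA of the large cluster within that region, had scaled intensities of 21.1 and 34.8 at week 2 and 50.6 and 92.5 at week 6, and lay at the floor on all 4 control arrays. Both week 6 arrays were above both week 2 arrays, 2.53-fold on average (log2 difference 1.34, SE 0.36, unadjusted p = 0.0105, limma adjusted p = 0.286). Over the alternative settings its difference ranged from 0.42 to 1.77 and its lowest adjusted p was 0.0747.

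miR-299b-5p had 17.02 and 24.81 at week 2 and 42.1 and 57.3 at week 6 (log2 difference 1.26, SE 0.25, limma adjusted p = 0.200). miR-434-3p, which lies within the imprinted antisense transcript of Rtl1, had 13.3 and 13.8 at week 2, at and just above the floor, and 24.6 and 32.0 at week 6 (log2 difference 1.05, SE 0.19, limma adjusted p = 0.200). In both, as in miR-379-5p, the groups did not overlap, and the 4 control arrays lay at the floor. The week 2 values of miR-434-3p lay close to the floor, and with the floor doubled its difference was 0.14.

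miR-300-3p had 15.6 and 21.1 at week 2 and 30.8 and 46.2 at week 6, with a log2 difference of 1.06 (SE 0.28). It shares a run of 16 bases with miR-381-3p, a neighbour in the region. miR-154-5p had 14.1 and 18.6 at week 2 and 27.7 and 39.3 at week 6, with a log2 difference of 1.03 (SE 0.26). For miR-136-5p, an antisense miRNA to Rtl1, both week 2 arrays lay at the floor and the week 6 arrays were at 18.7 and 36.6 (log2 difference 0.98, SE 0.39). miR-127-3p, likewise antisense to Rtl1, had 24.2 and 32.1 at week 2 and 35.1 and 56.3 at week 6 (log2 difference 0.67, SE 0.27). In all 4 the week 6 arrays were above those of week 2 without overlap, and all 4 lay at the floor in controls. Over the alternatives the difference ranged from 0.16 to 1.35 for miR-300-3p, 0.11 to 1.47 for miR-154-5p, 0.046 to 1.49 for miR-136-5p, 0.097 to 1.02 for miR-127-3p, 0.26 to 1.54 for miR-299b-5p and 0.034 to 1.41 for miR-434-3p, each lowest with normexp.

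The second week 6 array carried much of this pattern. In each of the 8 miRNAs that did not overlap, replicate 2 of week 6 was above replicate 1. Of the 12 that overlapped, 3 lay at the floor on all 4 NASH arrays, and the other 9 had higher means at week 6 with the highest value on replicate 2, replicate 1 being at the floor for 8 of them. miR-376b-3p, named after its values were seen, is the exception among those 9, with 13.25 and 20.99 at week 2 and 19.1 and 51.5 at week 6. Without replicate 2 of week 6 the list's median was 0, with 9 higher and 3 lower means, and without replicate 1 it was 1.02.

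The 1 member lower on both week 6 arrays was miR-494-3p, singled out for that reason. It had 778 and 634 at week 2 and 589 and 506 at week 6 (log2 difference -0.36, SE 0.22), and at 415 to 667 in controls it was the only one of the 21 above the floor there. Summed over the other 20, the scaled intensity was 290.8 and 346.7 at week 2, 410.0 and 692.3 at week 6, and 265.1 on each control array, where all 20 lay at the floor. In whole liver, more cells of a type and more RNA per cell cannot be told apart.

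**Figure D2:**
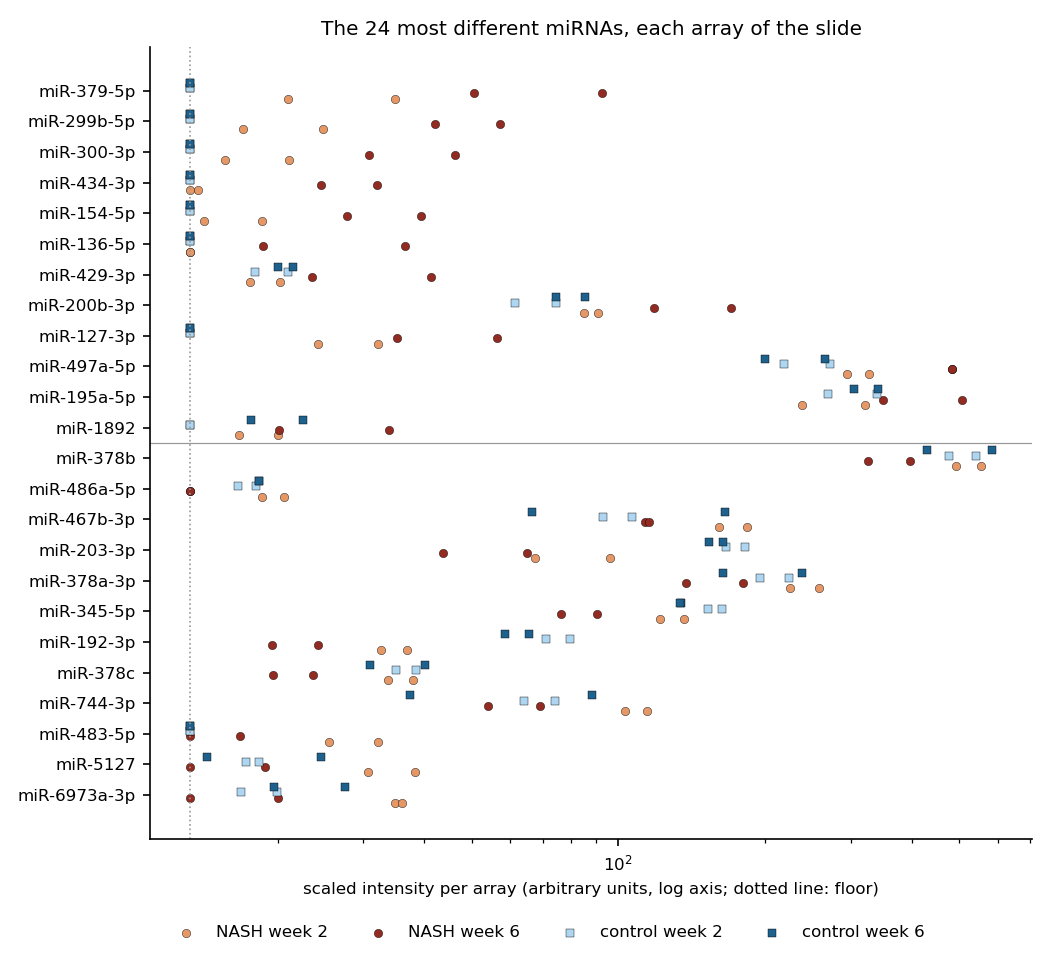
Scaled intensity on each NASH and control array of weeks 2 and 6 (log axis, arbitrary units) for the 12 most different miRNAs in each direction, those higher at week 6 above the grey line. The 2 dark red points of week 6 do not overlap the 2 orange points of week 2 in any of the 24, which is how they were chosen; the control squares of the Dlk1-Dio3 miRNAs lie at the floor of 13.25.

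Among the other miRNAs that were higher at week 6, miR-497a-5p and miR-195a-5p belong to the miR-15 and miR-16 family, which targets cyclins and other cell cycle genes. miR-497a-5p had 294 and 327 at week 2 and 484 on both week 6 arrays, while control arrays ranged from 200.4 to 271. Its 1.56-fold difference (log2 0.64, SE 0.19, unadjusted p = 0.00875, limma adjusted p = 0.286) was larger than the spread within either group. miR-195a-5p had 238 and 321 at week 2 and 348 and 508 at week 6 (log2 difference 0.61, SE 0.23, limma adjusted p = 0.391). The other 4 of the 6 family members overlapped, and the family's median difference was 0.12, so that members with the same seed did not differ together.

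miR-200b-3p and miR-429-3p are epithelial miRNAs that repress the transcription factors Zeb1 and Zeb2, and in liver they mark bile duct cells. miR-200b-3p had 90.9 and 85.1 at week 2, 119 and 171 at week 6 and 61.3 to 85.6 in controls (log2 difference 0.69, SE 0.38, limma adjusted p = 0.632). miR-429-3p had 17.6 and 20.3 at week 2, 23.5 and 41.3 at week 6 and 18.02 to 21.51 in controls (log2 difference 0.72, SE 0.43, limma adjusted p = 0.665). miR-200a-3p, from the same primary transcript, had 45.8 and 53.2 at week 2 and 48.8 and 89.5 at week 6, so that its groups overlapped (log2 difference 0.42, SE 0.45).

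For all 3, replicate 2 of week 6 was well above the other NASH arrays and replicate 1 was closer to week 2. The epithelial list as a whole was divided: of 8 members tested, these 2 were higher on both arrays and 2 were lower, the skin and epithelial miRNA miR-203-3p and, named after its values were seen, miR-31-5p, and the median difference was 0.01, or 0.25 when scaled over all probes. Over all miRNAs 6.87% were higher and 23.1% lower. miR-203-3p had 67.3 and 96.2 at week 2, 43.7 and 65.0 at week 6 and 153 to 182 in controls (log2 difference -0.60, SE 0.23). The summed level of the list was 382 and 416 at week 2 and 367 and 509 at week 6.

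miR-34a-5p, which p53 induces and which represses Sirt1, had 1031 and 977 at week 2 and 1455 and 1362 at week 6, against 106 to 144 on the control arrays. Both week 6 arrays were above week 2, 1.40-fold on average (log2 difference 0.49, SE 0.20, unadjusted p = 0.0402, limma adjusted p = 0.436). The difference ranged from 0.44 to 0.77 over the alternatives. The second family member tested, miR-34b-5p, which is outside the naming rule, lay at the floor on all 4 NASH arrays.

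Of the 11 miRNAs listed for stellate cells and fibrosis, 4 were higher on both week 6 arrays (beside 6.87% of all miRNAs tested), 1 was lower (beside 23.1%) and 6 overlapped. The median difference was 0 with 5 higher and 5 lower means, and 0.21 with 9 and 1 when scaled over all probes. miR-214-3p, made with miR-199a from the Dnm3os transcript in mesenchymal cells, had 112 and 103 at week 2, 155 and 128 at week 6 and 26.2 to 39.8 in controls (log2 difference 0.39, SE 0.16, limma adjusted p = 0.436). miR-199b-5p had 132 and 143 at week 2 and 181 and 200.2 at week 6 (log2 difference 0.47, SE 0.33). miR-199a-5p had 133 and 145 at week 2 and 167 and 172 at week 6 (log2 difference 0.28, SE 0.21).

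These 3 were higher at week 6 without overlap, and none passed the adjusted test. The fourth was miR-221-3p, named after its values were seen, with a log2 difference of 0.10. miR-21a-5p, abundant in injured liver, had 6344 and 13036 at week 2 and 5583 and 13726 at week 6. Its 2 arrays differed more within each week than the weeks did, and its difference of -0.05 (SE 0.42) changed sign with the scaling. In controls miR-21a-5p was higher at week 6, by 0.48. The list's summed level, of which it made the larger part in NASH, was 7403 and 14332 at week 2 and 6803 and 15261 at week 6. On the control arrays this sum was 12601 to 19844. The passenger strand miR-21a-3p was the 1 member lower on both arrays (log2 difference -0.52, SE 0.31), and was also lower in controls at week 6, by -0.93. The miR-29 family, which represses collagen genes, had 5 members tested, of which 3 were lower on both arrays (beside 23.1% of all miRNAs); its median difference was -0.05, or 0.21 when scaled over all probes, and the lowest was that of miR-29c-3p at -0.33.

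Several miRNAs of immune cells were far above control at both weeks. miR-223-3p, a marker of neutrophils and other myeloid cells, had 664 and 1010 at week 2, 627 and 1015 at week 6 and 204 to 283 in controls. Its difference was -0.04 with a 95% interval from -0.71 to 0.64. miR-155-5p, induced in activated macrophages and lymphocytes, had 30.6 and 36.6 at week 2 and 34.6 and 35.4 at week 6, with controls at the floor (log2 difference 0.06, 95% interval -0.49 to 0.62). In both the groups overlapped.

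The myeloid list had 9 members tested, of which 0 were higher on both arrays (beside 6.87% of all miRNAs) and 2 were lower (beside 23.1%), miR-132-3p at -0.19 and, named after its values were seen, miR-212-3p at -0.09. The member with the largest difference was miR-146b-5p, with 14.48 and 18.98 at week 2, 17.98 and 29.65 at week 6 and controls at the floor, so that its groups overlapped (log2 difference 0.48, SE 0.30, limma adjusted p = 0.735). The list had 4 higher and 5 lower means with a median of -0.04, and 9 and 0 with a median of 0.22 when scaled over all probes. In the lymphocyte list 2 of 5 were higher on both arrays (beside 6.87% of all miRNAs), the arms of miR-342. miR-342-3p, from an intron of Evl, had 602 and 571 at week 2, 709 and 663 at week 6 and 78.9 to 114 in controls (log2 difference 0.22, SE 0.18, limma adjusted p = 0.788). miR-342-5p had 18.3 and 17.5 at week 2 and 21.9 and 21.6 at week 6 (log2 difference 0.28, SE 0.15). Summed over the lists, the level was 1458 and 2191 at week 2 and 1424 and 2323 at week 6 for myeloid cells, and 691 and 651 at week 2 and 802 and 742 at week 6 for lymphocytes.

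Of 13 hepatocyte-enriched miRNAs tested, 8 were lower on both week 6 arrays, 0 were higher and 5 overlapped, beside 23.1% of all miRNAs lower on both arrays. The list's median difference was -0.36, and none passed the adjusted test. In controls 8 of the 13 were likewise lower on both week 6 arrays, beside 19.5% of all miRNAs there, with a median difference of -0.11. Under scaling over all probes the list's median was -0.10, where the median of all miRNAs detected on 4 arrays was 0.06.

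miR-122-5p, the leading miRNA of hepatocytes and a regulator of cholesterol synthesis, had 43951 and 45510 at week 2 and 33916 and 36890 at week 6. The control arrays were at 89628 and 92162 at week 2 and 88743 and 79381 at week 6. Both NASH week 6 arrays were below both week 2 arrays, which in turn were below all controls (log2 difference -0.34, SE 0.14, unadjusted p = 0.0364, limma adjusted p = 0.417). Under quantile normalization the difference was 0, the brightest probes being set to shared values.

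miR-192-3p, the lesser arm of its hairpin, had 32.6 and 36.9 at week 2, 19.5 and 24.2 at week 6 and 58.7 to 79.5 in controls. Both week 6 arrays were below both week 2 arrays, which were below all controls (log2 difference -0.67, SE 0.16, unadjusted p = 0.00244, limma adjusted p = 0.200). The main arm miR-192-5p had 3405 and 4693 at week 2 and 2467 and 3923 at week 6, and its groups overlapped (log2 difference -0.36, SE 0.23). miR-194-5p, transcribed with miR-192 and named beside it after its values were seen, had 1191 and 1384 at week 2 and 878 and 1073 at week 6 (log2 difference -0.40, SE 0.15).

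miR-193a-3p had 608 and 583 at week 2, 464 and 436 at week 6 and 1049 to 1148 in controls (log2 difference -0.40, SE 0.12, unadjusted p = 0.00893, limma adjusted p = 0.286). miR-148a-3p, which represses the LDL receptor, had 1824 and 2158 at week 2 and 1190 and 1735 at week 6 (log2 difference -0.47, SE 0.21). miR-455-3p had 31.1 and 29.8 at week 2 and 23.9 and 21.5 at week 6 (log2 difference -0.43, SE 0.16). All 3 were lower on both week 6 arrays. Summed over the list, the level was 51544 and 54973 at week 2, 39337 and 44560 at week 6 and 97870 to 112460 on the control arrays.

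The miR-378 group lay in the same direction but was not below control at week 2. miR-378a-3p, encoded in an intron of Ppargc1b and listed for lipid metabolism, had 258 and 225 at week 2, 181 and 137 at week 6 and 164 to 238 in controls (log2 difference -0.61, SE 0.22, limma adjusted p = 0.382). miR-378c had 37.9 and 33.7 at week 2 and 23.6 and 19.6 at week 6 (log2 difference -0.74, SE 0.18, limma adjusted p = 0.200). miR-378b had 556 and 492 at week 2 and 398 and 325 at week 6 (log2 difference -0.54, SE 0.19).

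miR-378d, singled out for its shared sequence, had 494 and 439 at week 2 and 365 and 289 at week 6 (log2 difference -0.52, SE 0.20). All 4 were lower on both week 6 arrays. Given the runs of bases that miR-378b, miR-378c and miR-378d share, printed above, their signals may not be independent of each other. No RefSeq sequence was found for miR-378a-3p, so the run it shares with them was not measured. Its signal may not be independent of theirs either. The list for lipid metabolism had 9 members tested, of which 6 were lower on both arrays (beside 23.1% of all miRNAs) and 0 higher, with a median of -0.29, or -0.029 when scaled over all probes.

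**Figure D3:**
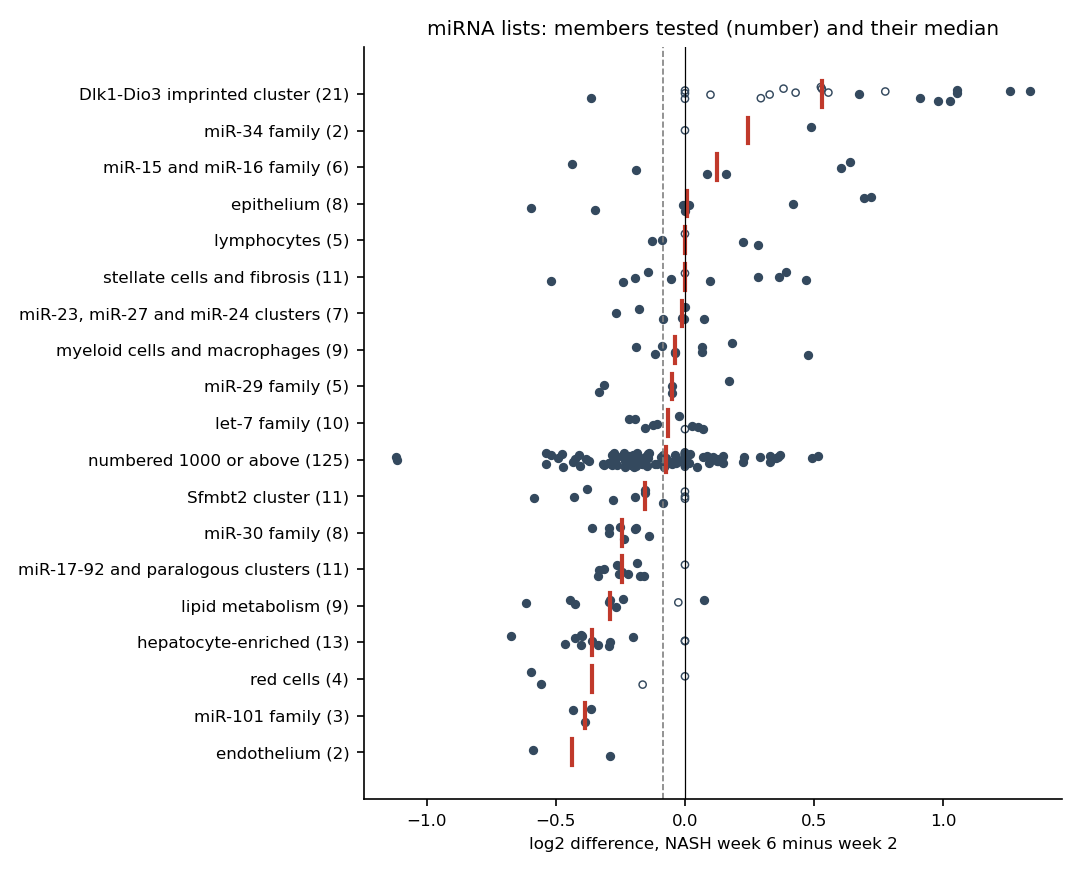
Log2 difference, NASH week 6 minus week 2, of the members tested in each list (filled, detected on all 4 arrays; open, on fewer), with the list's median in red and the median of all 364 miRNAs, -0.09, as a dashed line. The Dlk1-Dio3 list lies highest with a median of 0.53, and the hepatocyte-enriched list lies below the dashed line with a median of -0.36.

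Several other miRNAs were lower at week 6. miR-345-5p, encoded on chromosome 12 outside the Dlk1-Dio3 list's span, had 136 and 122 at week 2, 90.5 and 76.4 at week 6 and 134 to 163 in controls (log2 difference -0.63, SE 0.14, unadjusted p = 0.00156, limma adjusted p = 0.200). miR-483-5p, from an intron of Igf2, had 32.1 and 25.6 at week 2 and 16.7 and the floor at week 6, and lay at the floor in controls (log2 difference -0.94, SE 0.21, limma adjusted p = 0.286). miR-185-5p had 155 on both week 2 arrays and 119 and 112 at week 6 (log2 difference -0.43, SE 0.12, limma adjusted p = 0.265). In all 3 the groups did not overlap. With 1 week 6 array at the floor, the size for miR-483-5p depends on the floor, and it ranged from -1.11 to -0.14 over the alternatives.

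miR-6973a-3p had 34.9 and 36.0 at week 2 and 20.04 and the floor at week 6, with controls between 16.8 and 27.6 (log2 difference -1.12, SE 0.26, unadjusted p = 0.00288, limma adjusted p = 0.200). miR-5127 had 38.3 and 30.6 at week 2 and 18.9 and the floor at week 6 (log2 difference -1.11, SE 0.30). Both were closer to control at week 6 than at week 2. The sizes of both depend on the floor. Over the alternatives the difference ranged from -1.42 to -0.35 for miR-6973a-3p and from -1.37 to -0.33 for miR-5127. miR-744-3p had 115 and 103 at week 2 and 69.2 and 54.0 at week 6 (log2 difference -0.83, SE 0.41). miR-467b-3p, from the rodent cluster in Sfmbt2, had 183 and 161 at week 2 and 113 and 116 at week 6 (log2 difference -0.59, SE 0.40). Of the 125 miRNAs numbered 1000 or above, 1 was higher on both arrays (beside 6.87% of all miRNAs), miR-1892 at 0.52 (SE 0.27), and 18 were lower, a smaller share than the 23.1% of all miRNAs.

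Families of widely expressed miRNAs had small differences, and under some of the scalings the direction of part of their members turned. The miR-30 family had 8 members tested, of which 6 were lower on both arrays (beside 23.1% of all miRNAs), with differences from -0.36 to -0.14. Scaled over all probes 5 were higher and 3 lower, and without scaling 4 and 4. With median centring 0 were higher and 8 lower, and with quantile normalization 1 and 7. In controls 4 of the 8 were lower on both week 6 arrays (beside 19.5% of all miRNAs there). miR-30c-5p had 1006 and 977 at week 2 and 819 and 798 at week 6 (log2 difference -0.30, SE 0.14, and -0.32 to -0.034 over the alternatives). In the miR-17-92 and paralogous clusters, which drive proliferation, 5 of 11 were lower on both arrays (beside 23.1% of all miRNAs), with a median of -0.25. In controls 6 of these 11 were (beside 19.5% of all miRNAs there), with a median of -0.20. Scaled over all probes 6 were higher and 4 lower in NASH, with median centring 0 and 10, and with quantile normalization 1 and 9. miR-93-5p had 256 and 276 at week 2 and 208 and 212 at week 6 (log2 difference -0.34, SE 0.13, and -0.39 to -0.076 over the alternatives). In the let-7 family 9 of 10 overlapped, with 3 higher and 6 lower means, or 9 and 0 when scaled over all probes.

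Markers of other cells gave the following values. Of the 4 red cell miRNAs tested, 1 was lower on both arrays (beside 23.1% of all miRNAs), miR-486a-5p. It had 18.5 and 20.6 at week 2 and the floor on both week 6 arrays (log2 difference -0.56, SE 0.17). miR-451a, the main red cell miRNA, overlapped, with 988 and 1873 at week 2, 664 and 1221 at week 6 and 2184 to 3787 in controls (log2 difference -0.60, SE 0.41). The endothelial miRNAs miR-126a-3p and miR-126a-5p overlapped as well, with differences of -0.29 (SE 0.22) and -0.59 (SE 0.45). Leaving out single arrays gave -0.55 to -0.026 for miR-126a-3p, -1.13 to -0.046 for miR-126a-5p and -1.06 to -0.13 for miR-451a. The value nearest 0 came without replicate 1 of week 6 for both miR-126a arms and without replicate 2 of week 2 for miR-451a. The summed red cell level was 1015 and 1940 at week 2 and 681 and 1270 at week 6, and the part of blood in the differences of other miRNAs was not tested. Of the 9 muscle miRNAs 0 were detected on 2 of the 4 arrays, and of the 8 for pancreas and neuroendocrine cells 1 was tested, miR-7a-5p, which overlapped (log2 difference -0.38).

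Control livers of the same ages, measured on the same slide, served as the background of age. Between week 2 and week 6 of chow 0 of the 364 miRNAs passed the adjusted test in limma (0%), with 35 at an unadjusted p under 0.05 (9.62%) and a lowest adjusted p of 0.114. Both week 6 control arrays were above both week 2 arrays for 55 miRNAs (15.1%) and below for 71 (19.5%). For the difference between the diets in the change over weeks, 0 passed (0%), 35 had an unadjusted p under 0.05 (9.62%), and the lowest adjusted p was 0.426. No miRNA was thus shown to differ over the weeks in NASH in another way than in control.

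For the 20 Dlk1-Dio3 list members other than miR-494-3p the controls were at the floor at both weeks. The difference between diets thus equalled that within NASH, and a change in controls below the floor would not be seen. It was 1.26 (SE 0.35) for miR-299b-5p and 1.05 for miR-434-3p, each with a limma adjusted p of 0.426. For miR-497a-5p it was 0.72 and for miR-34a-5p 0.55, with adjusted p of 0.426 and 0.593. For miR-122-5p it was -0.22 and for miR-193a-3p -0.33, with adjusted p of 0.901 and 0.593. miR-214-3p was higher at week 6 by 0.37 in controls, close to its 0.39 in NASH.

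The largest differences over weeks lay in the controls. miR-3102-5p, singled out as the largest, had 14.1 and 13.3 in control week 2 and 207 and 58.0 in control week 6, a log2 difference of 3.00, while NASH arrays gave 0.49. miR-3960, also outside the naming rule, had 87.2 and 62.0 in control week 2 and 665 and 261 in control week 6, a log2 difference of 2.50, while NASH arrays gave 0.23. Among the 125 miRNAs numbered 1000 or above, 43 were higher on both control week 6 arrays (beside 15.1% of all miRNAs there). On both NASH week 6 arrays 1 was (beside 6.87%). Control week 6 replicate 1, which gave the higher week 6 value of miR-3102-5p and miR-3960, had 253 miRNAs detected and a scaling percentile of 394. The other control arrays of weeks 2 and 6 had 292 to 306 detected and percentiles of 481 to 646. The part of array quality in these differences was not tested.

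**Figure D4:**
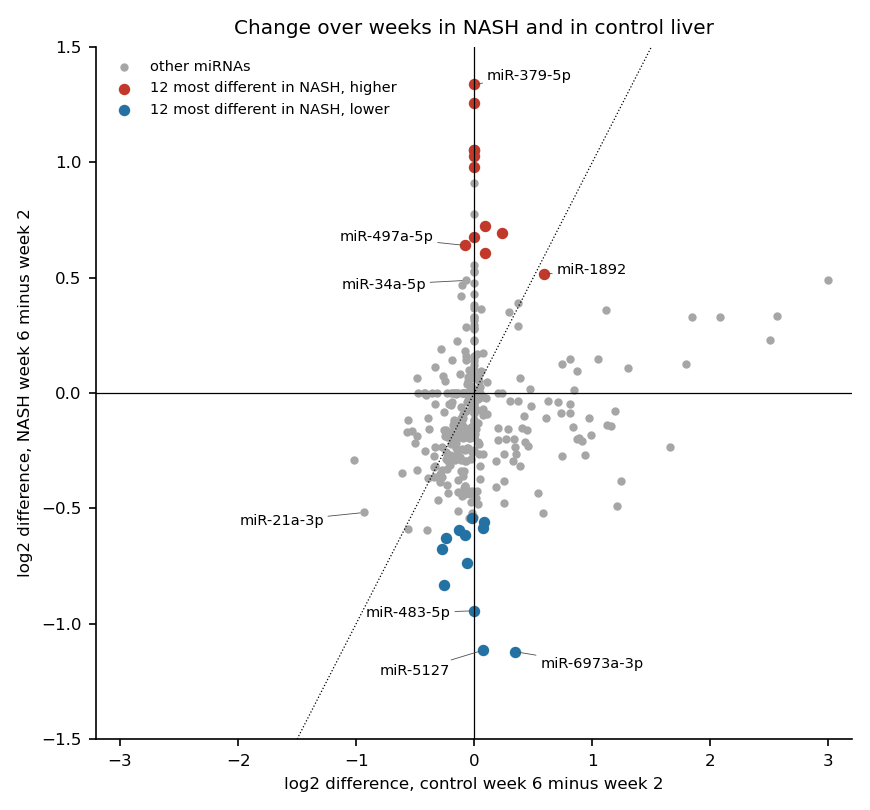
Log2 difference between week 6 and week 2 in NASH (vertical) against that in control (horizontal) for the 364 miRNAs, each from 2 against 2 arrays, with the dotted line of equal difference. The members of the Dlk1-Dio3 list other than miR-494-3p stand at 0 on the control axis because control arrays lay at the floor. A set of miRNAs extends to the right, up to 3.00 for miR-3102-5p, whose difference in NASH was 0.49.

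Base composition moved with these values. Over the 270 miRNAs detected on all 4 NASH arrays that have a RefSeq sequence, Spearman's rho between GC content and the log2 difference over weeks was 0.13 in NASH and 0.50 in control, a description across miRNAs that share the same arrays. The same rho for replicate 1 minus replicate 2 was 0.45 in NASH week 2 and 0.70 in NASH week 6. In NASH week 6 the median of replicate 1 minus replicate 2 was -0.60 for the 37 miRNAs under 40% GC and 0.37 for the 72 at 60% GC or more, larger than the median difference between weeks in either class, -0.18 and -0.07. The part of base composition in the differences between weeks was not tested.

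The AU-rich miR-19a-3p shows what this spread means for single miRNAs. It had 45.2 and 145 at week 2 and 27.6 and 154 at week 6, so that the 2 arrays of a week differed by more than 3-fold and the weeks by a log2 difference of -0.31 with a 95% interval from -1.97 to 1.34. A change of that size in either direction was not detectable with these arrays.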

How the data were processed

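Mature miRNAs were measured in liver on 1-colour Agilent arrays from 100 ng of RNA labelled with Cy3, per the labels' protocols. The authors deposited scanner intensity per spot, extracted and background-subtracted by Agilent Feature Extraction (11.5 per the submitters' processing notes, 11.5.1.1 per the file headers), with no normalization between arrays.

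Control spots and spots with outlier flags (2.48% to 2.96% of spots; 0 were saturated) were left out and spots of a probe averaged. Each array was divided by its 75th percentile over 299 probes that stood well above background on every one of the 12 liver arrays. The 5th percentile of the scaled signals above background was found on every array, its median (13.25) was used as a floor, log2 was taken, and a miRNA was given its brightest probe. Of 216 miRNAs with another informative probe, 10 had one of opposite sign. limma 3.58.1 (R 4.3.3) was fitted to the 12 arrays in 6 diet-by-week groups. Groups lying wholly at the floor were left out of the residual variance, because they show no spread. eBayes and Benjamini-Hochberg adjustment over the 364 miRNAs followed, with a call at adjusted p below 0.05. The fit was tested on simulated data with independent noise on each array and changes planted only in the brighter miRNAs. Such data hold no deviation shared by same-numbered arrays and no change near the floor, so the fit was not tested for these. The number of arrays limits the precision. Detected counts and scaling were compared by exact permutation.

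The rule named the 12 miRNAs per direction with the largest difference, taken, as none was called, from those detected on all 4 arrays whose groups did not overlap. It also named 12 fixed miRNAs and, in each list, at most 4 members. Exceptions are marked in the text. The members and lists were chosen with earlier results of these data known. Other settings were tried for the signal, its background correction and scaling, the choice of probe, the floor, the filter, the variance, the arrays fitted and the replicate block, and arrays were left out singly. The week 1 liver arrays entered only the scaling and the variance.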

Additional observations from a re-analysis of the deposited data

How the results depend on the processing

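The count of 0 called miRNAs for NASH week 6 against week 2 was 0 under all alternatives run except the ordinary limma variance, which gave 14 calls, 9 of them in the lists, and 5 for the difference between diets. That fit differs only in counting groups at the floor as having no spread, and its prior had 0.58 degrees of freedom in place of 2.80. For control week 6 against week 2 the count of 0 became 12 with the total gene signal, 2 with normexp, 4 when scaled over all probes, 7 without scaling and 2 with the ordinary variance, and it was 0 to 8 when arrays were left out singly, 8 without Liver_Control_6w replicate 2; the cause was not tested. Calls at unadjusted p under 0.05 for NASH ranged from 11 without scaling to 59 with the ordinary variance.

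Same-numbered NASH arrays of weeks 2 and 6 deviated together (r = 0.63 over 310 miRNAs, and -0.48 to 0.71 over pairs of liver groups). They share a replicate number and a slide row, which cannot be told apart. No pairing of mice is stated, and there are 2 pairs. With the replicate block 0 miRNAs were called and 50 had an unadjusted p under 0.05.

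Of the 83 miRNAs that the rule names, 29 had the opposite sign under at least 1 alternative, 15 of them under a scaling. All 29 had differences of at most 0.48. Of the 24 most different 0 did, which was in part fixed in advance. They were chosen without overlap, so leaving out 1 array could not turn their sign. Other filters, variances and the replicate block leave a difference as it was. A difference of exactly 0, which miR-486a-5p reached, was not counted as the opposite sign. The values that follow are those of miRNAs named in the text, a set settled after these signs were seen. With the total gene signal, miR-21a-5p was at 0.025, miR-212-3p at 0.025 and miR-223-3p at 0.052. Scaled over all probes these were at 0.21, 0.17 and 0.22, and miR-132-3p at 0.070; without scaling they were at 0.19, 0.16 and 0.21, and miR-132-3p at 0.055. miR-21a-5p and miR-223-3p were at 0.017 and 0.035 when scaled over the probes of the 4 arrays and at 0.032 and 0.050 with median centring. Quantile normalization gave 0.074 for miR-212-3p and 0.060 for miR-223-3p. With normexp, miR-155-5p was at -0.15, miR-146b-5p at -0.075, miR-342-5p at -0.093 and miR-411-5p at -0.036. The Dlk1-Dio3 median ranged from 0 with normexp and 0.03 with the floor doubled to 1.30 with the total gene signal. Leaving out single arrays gave -0.70 to 0.59 for miR-21a-5p, -0.38 to 0.31 for miR-223-3p, -0.065 to 0.19 for miR-155-5p, -1.56 to 0.93 for miR-19a-3p, -0.019 to 0.86 for miR-200a-3p, -0.084 to 1.07 for miR-3102-5p, -0.38 to 0.83 for miR-3960 and -1.05 to 0.29 for miR-7a-5p. These causes were not tested. Differences under about 0.49 log2 units, the median half-width of the unadjusted 95% interval, could not be told from 0 for a typical miRNA. A call after adjustment over 364 miRNAs takes a difference that is larger in relation to its SE, and the SE varied between miRNAs. The largest difference, 1.34, was not called.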
